A study of Mus musculus with 2 samples.

Results

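The coding part of the last exon held 17251 of the 160430 genome positions that any of 17 lists of N6-methyladenosine (m6A) sites named, or 10.8%. A position was a unique chromosome, base and strand. It was counted here when it lay before the stop codon in the last exon of a GENCODE protein-coding transcript of at least 2 exons, taking the transcript with the longest coding sequence that held the position. The 17251 positions lay in 5923 genes, with a median of 2 per gene and a maximum of 49, and 2318 genes had a single position. The 242 genes with at least 10 positions held 3462 of them. All but 8 positions had the RRACH sequence (R is A or G, H is A, C or T) around the listed base in the transcript (17243, 99.95%). The background was 42534 RRACH positions in last-exon coding sequence, in 8141 genes. It was taken from every coding transcript on which a listed position was placed, in any part of the transcript. It therefore includes genes without a listed position in last-exon coding sequence.

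Native poly(A) RNA of mouse 129 embryonic stem cells (mESCs) was read by Oxford Nanopore direct RNA sequencing, with 1 wild-type (WT) library and 1 library of cells whose Mettl3, the catalytic subunit of the m6A methyltransferase, had been knocked out (KO) on both alleles by replacing internal exons with puromycin and hygromycin resistance genes. The 10 tools look for m6A in the current or in base-calling errors. Tombo, MINES, Nanom6A, m6Anet, ELIGOS and Epinano (single-mode) and xPore (compare-mode) gave separate lists for WT and KO. The lists of Nanocompore, DiffErr and DRUMMER, 1 per tool, hold positions that differed between the libraries and are called comparison lists here. The lists give positions without a score, a rate or a coverage, so the reads behind each position are unknown, no value can be given per replicate, and intervals cover counting error over positions in these libraries only.

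The methyltransferase complex acts on the nascent transcript within a short consensus, and m6A is known to gather near stop codons, in long internal exons and in last exons. The exon junction complex, which is laid down just upstream of each junction as introns are removed, is known to keep m6A away from the ends of exons. A last exon has a junction at its start and none at its end. A position near its start is therefore close to a junction, and one near the stop codon of a long last exon is not.

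As a check of the labelled cell type over all listed positions, 9 of 10 embryonic stem cell markers had a listed position (242 positions, all but Lin28a), 235 of them in WT and 185 in KO lists. Col1a2, Col3a1, Postn, Acta2, Dcn and Lum of 8 fibroblast markers had none, and the 2 others had 7 positions together, 3 in WT and 4 in KO lists. Sox17 of 5 endoderm markers had 12 positions and Eomes of 4 mesoderm markers 3, all of them in WT lists and none in a KO list. Nes and Tubb3 of 4 neural markers had 9, 6 in WT and 4 in KO lists. Last-exon coding sequence held 11 of the positions of Sox17 and all 3 of Eomes, and the part of this difference between the libraries in the contrasts of WT and KO was not tested. In Mettl3, last-exon coding sequence held 1 listed position, an AGACC 42 nt from the last junction that was in 1 WT and 1 KO list. It lies downstream of the replaced exons and does not check the knockout.

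Sequences of 25 bases around the most widely listed positions are shown because they hold the consensus in its context. Each is read 5′ to 3′ on the transcribed strand of GRCm38, in lower case with the RRACH 5-mer in capitals, and the listed A is the middle base of the capitals. The first set has 8 positions that most tools listed in WT or in the comparison and that no tool listed in KO.
Med7, chr11:46441205-46441229, plus strand: gtcacagaagGGACCagattataga
Setd3, chr12:108107384-108107408, minus strand: agcctcacagAGACTgtcagcaaag
Gemin6, chr17:80227973-80227997, plus strand: gatgcacaaaGGACTctctgtgtgg
Zswim1, chr2:164825024-164825048, plus strand: cctggtagatGGACCccgggtccag
Polr1d, chr5:147078855-147078879, plus strand: ccagcataaaGGACTataaagctaa
Nup62, chr7:44829743-44829767, plus strand: accaggagctGGACTttatcctgtc
Mesd, chr7:83897806-83897830, plus strand: gggagatcaaGGACTttttggtcag
Utf1, chr7:139944965-139944989, plus strand: gcatccttggGGACTtgcgccaata

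The next set has 4 positions that most tools listed in both WT and KO, the last of them tied.
Tmed10, chr12:85343479-85343503, minus strand: ctgcctcattGGACTagccacctgg
Plekhj1, chr10:80796404-80796428, minus strand: taaatgtgttGGACTgaccctctct
Zfp982, chr4:147512498-147512522, plus strand: gtagtgaatgGGACAaatgcttttc
Dynlt1b, chr17:6435943-6435967, plus strand: cagtaccttcGGACTgtccatctga

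The last set has 3 positions with the highest number of KO tools among those that no WT or comparison list had, the last 2 of them tied.
G430095P16Rik, chr8:84726721-84726745, plus strand: acaccctgaaGGACCatcaaagaac
Raph1, chr1:60488530-60488554, minus strand: gatcttaacaGGACAttgcagcgca
Lrrn2, chr1:132938757-132938781, plus strand: agccaggcagGGACAaaggaccagg

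All 10 tools listed Med7, Setd3 and Gemin6 without a KO call. The Med7 position (a subunit of Mediator) lay 655 nt from the last junction and 62 nt before the stop codon, the Setd3 position (an actin histidine methyltransferase) 283 nt from the junction, and the Gemin6 position (a member of the SMN complex) 248 nt from it. A further 17 positions without a KO call were listed by 9 tools, of which the first 5 in the fixed order are shown. They are in Zswim1 (355 nt from the junction), Polr1d (333 nt, a subunit shared by RNA polymerases I and III), Nup62 (1269 nt, a nuclear pore protein), Mesd (69 nt, a chaperone of LDL receptor-related proteins) and Utf1 (451 nt, a chromatin factor of ES cells). Of these 8 positions, only the one in Mesd was within 100 nt of the last junction. Of the 17 listed by 9 tools, which lay from 69 to 1455 nt from the junction, 2 were within 100 nt. In the RRACH background of all genes 33.6% were. MINES was the tool missing at each of the 5 shown except Utf1, where Epinano was missing.

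Of the positions shown for both libraries, the one in Dynlt1b was the first in the fixed order of 34 that 4 tools listed in both, which lay from 1 to 1173 nt from the junction. Tmed10, a cargo receptor of the early secretory pathway, had a GGACT 59 nt from the junction that 6 tools listed in WT and the same 6 in KO, and no comparison list held it. In Plekhj1, 7 tools listed a GGACT in WT and 5 of them in KO, and DiffErr and DRUMMER also listed it. This A was 2 nt before the stop codon and 107 nt from the junction. Zfp982 (a zinc finger protein) had 5 tools in both libraries at a GGACA 166 nt from the junction, with no comparison tool, and Dynlt1b (a dynein light chain) had 4 in both and all 3 comparison tools at 59 nt. Zfp982 and Dynlt1b belong to families of near-identical copies, and the gene that the reads came from is uncertain there.

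The positions listed only in KO had fewer tools. G430095P16Rik had 4, Tombo, MINES, Nanom6A and ELIGOS, at a GGACC. Raph1 (lamellipodin, a regulator of actin at the leading edge) and Lrrn2 each had Tombo, MINES and Epinano at a GGACA, 1780 and 1789 nt from the junction, and were the first in the fixed order of 13 positions with 3 tools.

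Last-exon coding sequence took a larger share of the comparison lists than of the WT and KO lists. It held 8.46% of all RRACH positions of the coding transcripts used. Of positions in any WT list 10.9% lay there, of those in any KO list 10.6%, and of those in any comparison list 19.6% (95% Wilson interval 18.3% to 21.03%). The share was 19.0% for Nanocompore, 20.6% for DiffErr and 20.1% for DRUMMER. Among tools with a list for each library, it was higher in WT than in KO for ELIGOS (15.6% and 11.9%), Epinano (13.3% and 9.12%), MINES (13.3% and 10.7%), m6Anet (13.1% and 10.6%) and Tombo (11.5% and 10.9%), with intervals that did not overlap. The intervals overlapped for xPore (18.2% and 16.5%) and Nanom6A (10.96% and 10.94%).

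Counted per 100 RRACH positions, 33.2 last-exon coding positions were in a WT list, 26.7 in a KO list and 1.46 in a comparison list. Coding sequence in earlier exons under 400 nt had 25.6, 23.3 and 0.156, earlier exons of at least 400 nt had 19.2, 14.1 and 0.553, and the 3′ UTR part of last exons had 24.6, 19.2 and 0.914. The comparison lists were thinnest in the short earlier exons. Within genes (Mantel-Haenszel odds ratio stratified by gene), the odds of being in a comparison list were 9.53 times higher in last-exon coding sequence than in earlier exons under 400 nt (95% interval 7.50 to 12.1, 430 genes). The same ratio was 2.13 (2.06 to 2.21) for the WT lists and 1.43 (1.38 to 1.48) for the KO lists. Against earlier exons of at least 400 nt it was 1.54 for the comparison lists (1.11 to 2.15), 1.84 for WT and 1.81 for KO. Against the 3′ UTR of last exons it was 1.06 for the comparison lists, with an interval from 0.950 to 1.19 that holds 1, and 1.30 for WT and 1.24 for KO. The part of read coverage in these ratios was not tested.

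A comparison list of at least 1 tool held 621 of the 17251 positions (3.60%, against 1.97% of all listed positions), in 428 genes. In these, 2 or more tools agreed on 288 positions in 220 genes, and all 3 listed 108. Nanocompore listed 401 positions (2.32%, against 1.31% of all listed positions), DiffErr 361 (2.09%, against 1.09%) and DRUMMER 255 (1.48%, against 0.790%). At least 2 of them listed 1.67% (interval 1.49% to 1.87%), against 0.898% of all positions. The same share was 1.43% in 3′ UTRs, 1.04% in earlier exons of at least 400 nt and 0.145% in shorter earlier exons.

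Those 288 positions were also widely listed in WT. Nanom6A held 92.0% of them in WT, m6Anet 89.2%, Tombo 82.6%, ELIGOS 70.5%, Epinano 69.8%, xPore 55.9% and MINES 28.5%. In KO the shares were 47.6% for Nanom6A, 41.0% for Tombo, 20.5% for xPore, 19.4% for m6Anet, 6.94% for MINES, 2.78% for Epinano and 0.694% for ELIGOS, which listed 2 of the 288. In some KO list were 223 of the 288 (77.4%). Over all 1441 positions of at least 2 comparison tools the values were close to these, with 79.3% in some KO list, 93.3% for Nanom6A, 87.9% for m6Anet and 81.4% for Tombo in WT, and 52.2% for Nanom6A, 38.7% for Tombo, 21.6% for m6Anet and 15.8% for xPore in KO.

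Over all 17251 positions, 14120 were in a WT list (81.9%, against 80.4% of all listed positions), 11359 in a KO list (65.8%, against 67.1%), 8229 in KO lists as well as WT or comparison lists, and 5892 outside all KO lists. The remaining 3130 (18.1%) were in KO lists alone, against 19.6% of all listed positions.

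Each tool listed fewer last-exon coding positions in KO than in WT, by very different amounts, as it did over all positions. ELIGOS listed 929 in WT and 184 in KO, a ratio of 0.198 (95% interval from the exact binomial 0.168 to 0.232). Epinano listed 5932 and 1378 (0.232, 0.219 to 0.246), xPore 977 and 396 (0.405, 0.360 to 0.456), and m6Anet 3066 and 1448 (0.472, 0.443 to 0.503). MINES listed 1784 and 1009 (0.566, 0.523 to 0.611), Nanom6A 3677 and 3049 (0.829, 0.790 to 0.870) and Tombo 8617 and 7389 (0.857, 0.831 to 0.885). Over all listed positions the ratio was 0.259 for ELIGOS, 0.339 for Epinano, 0.446 for xPore, 0.580 for m6Anet, 0.703 for MINES, 0.831 for Nanom6A and 0.905 for Tombo, so that Nanom6A hardly differed. The single-library design cannot separate a lost call from a difference in reads at a position. In earlier exons under 400 nt the ratio was higher for every tool, at 0.580, 0.444, 0.911, 0.840, 0.910, 0.885 and 1.01 in the same order, though the intervals of Nanom6A overlapped. In earlier exons of at least 400 nt it was 0.165, 0.224, 0.284, 0.524, 0.576, 0.757 and 0.814, and in 3′ UTRs 0.174, 0.336, 0.362, 0.437, 0.597, 0.763 and 0.825.

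**Figure D1:**
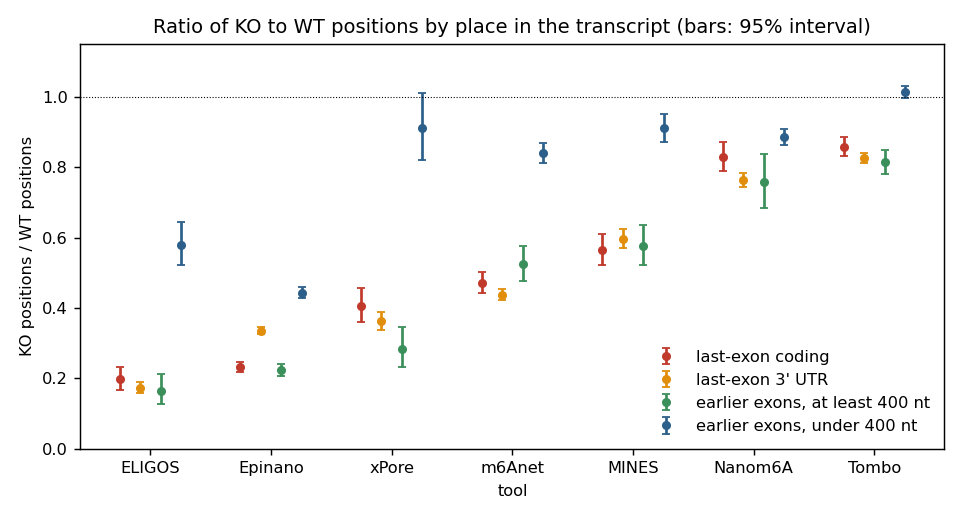
Number of KO positions over WT positions for each of 7 tools (x axis), by place in the transcript (colours), with bars for the 95% interval. For ELIGOS, Epinano, xPore, m6Anet, MINES and Tombo the last-exon coding point lies well below the point of earlier exons under 400 nt, and the points of 3′ UTRs and long earlier exons lie below that point as well.

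The same contrast was made at single positions. Of the WT positions of a tool in last-exon coding sequence, the KO list of that tool also held 56.8% for Tombo (59.7% over all its WT positions), 33.2% for MINES (40.2%), 62.2% for Nanom6A (65.4%), 27.4% for m6Anet (34.4%), 7.75% for ELIGOS (11.5%), 12.2% for Epinano (16.5%) and 20.2% for xPore (24.9%). Within genes, the odds of recurring in KO were lower in the last exon than in earlier coding exons for all 7 tools. The odds ratio was 0.875 for Nanom6A (0.771 to 0.993), 0.835 for Tombo (0.774 to 0.900), 0.779 for Epinano (0.673 to 0.902) and 0.630 for MINES (0.497 to 0.797). It was lower still for m6Anet, at 0.562 (0.488 to 0.648), for xPore, at 0.364 (0.193 to 0.687), and for ELIGOS, at 0.223 (0.102 to 0.491, from 125 positions in 40 genes). Against earlier exons of at least 400 nt alone the direction turned for every tool but ELIGOS (0.806, 0.130 to 4.99), to 1.46 for Tombo (1.25 to 1.71) and 2.01 for Nanom6A (1.33 to 3.02) and to values whose intervals held 1 for the other 4. When a KO call by any tool counted as recurrence, no tool kept an interval below 1, and Epinano turned to 1.42 (1.26 to 1.59). With strata of gene and 5-mer class the intervals of Nanom6A (0.984, 0.854 to 1.13), Epinano (0.862, 0.724 to 1.03) and xPore (0.916, 0.402 to 2.09) held 1.

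A smaller share of comparison-listed positions than of the background lay within 100 nt of the last junction, and for each tool with both lists the median distance was larger in WT than in KO. In the RRACH background the median distance was 188 nt, and 33.6% of positions lay within 100 nt. Comparison-listed positions had a median of 200 nt with 19.8% within 100 nt, and those of at least 2 comparison tools a median of 215 nt with 14.9% within 100 nt. For any WT list the median was 146 nt with 37.8% within 100 nt, and for any KO list 136 nt with 40.7%. By tool, the share within 100 nt was lower in WT than in KO for all 7. It was 22.8% and 38.0% for ELIGOS, 24.0% and 34.7% for Epinano, 20.2% and 31.3% for xPore, 28.4% and 37.4% for MINES, 36.7% and 45.8% for m6Anet, 48.3% and 52.4% for Nanom6A, and 35.7% and 38.8% for Tombo.

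Comparison-listed positions were rare next to the junction and were most frequent further away, at 201 to 400 nt. The share of RRACH positions in any comparison list was 0.521% at 1 to 50 nt, 1.28% at 51 to 100 nt, 2.48% at 101 to 200 nt, 2.58% at 201 to 400 nt, 1.58% at 401 to 800 nt and 0.574% beyond 800 nt. In any KO list it was 32.3%, 32.4%, 31.0%, 26.4%, 21.4% and 16.9% over the same bins, with overlapping intervals in the bins up to 200 nt. All shares by bin are pooled over genes, and the far bins come from long last exons only. Within genes, no KO list had an odds ratio below 1 beyond 100 nt, as given below. The WT share was 36.5%, 38.3%, 40.3%, 36.2%, 28.8% and 20.1%, with its maximum at 101 to 200 nt.

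**Figure D2:**
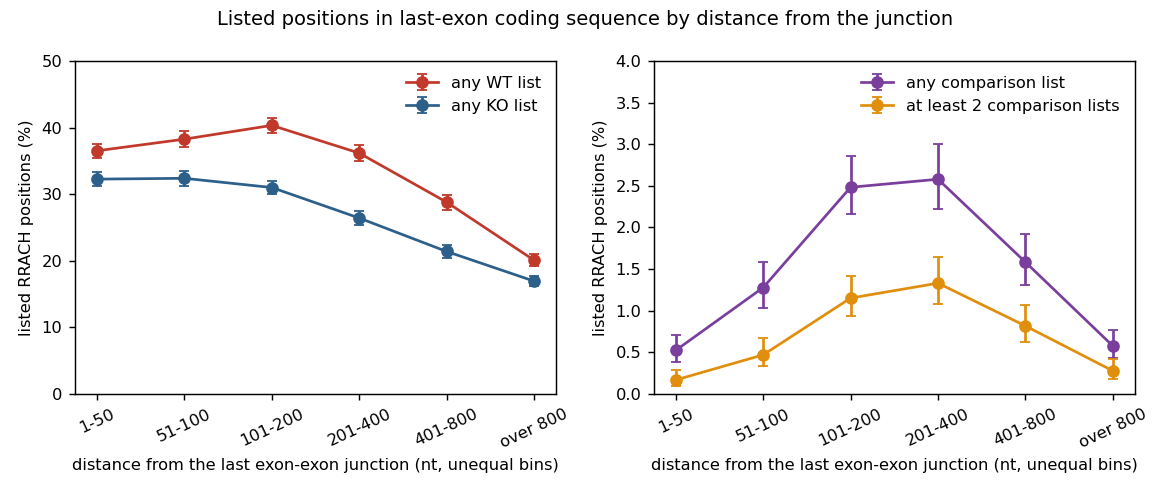
Share of RRACH positions in last-exon coding sequence that were listed (y axes, percent, different scales) by distance from the last junction (x axes, nt). Left, any WT and any KO list, and right, any comparison list and at least 2 comparison lists, with 95% Wilson intervals. Pooled over genes, the KO share falls from 32.3% to 16.9%, and the comparison share rises from 0.521% next to the junction to 2.58% at 201 to 400 nt before it falls.

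Within genes, listing beyond 100 nt was set against listing within 100 nt over the RRACH background. All 7 WT lists and the 3 comparison lists had odds ratios above 1. Those of the WT lists were 1.66 (1.53 to 1.80) for Tombo, 1.79 (1.53 to 2.09) for MINES, 2.18 for Nanom6A (1.88 to 2.54) and 2.36 for Epinano (2.14 to 2.60). The ratio reached 2.38 for m6Anet (2.09 to 2.71), 3.24 for ELIGOS (2.58 to 4.06) and 3.78 for xPore (2.96 to 4.81). The comparison lists had 3.75 for Nanocompore (2.61 to 5.37), 4.03 for DRUMMER (2.54 to 6.39) and 4.96 for DiffErr (3.22 to 7.64). In KO the ratio was 1.17 for Tombo (1.08 to 1.26) and 2.35 for xPore (1.68 to 3.27), and the intervals of the other 5 held 1, with ratios of 1.02 for ELIGOS, 1.05 for Nanom6A, 1.16 for m6Anet, 1.17 for MINES and 1.17 for Epinano. Over all genes together, the share within 100 nt was above that of the background for the WT lists of Tombo, Nanom6A and m6Anet, and for the KO lists of all tools but xPore. The pooled and the within-gene directions thus differ for these WT lists and for the KO list of Tombo. For the other 5 KO lists no within-gene direction is established, since their intervals held 1. Genes with short last exons were listed more often in WT and KO lists. xPore takes both libraries as input, and its KO list is not independent of WT.

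**Figure D3:**
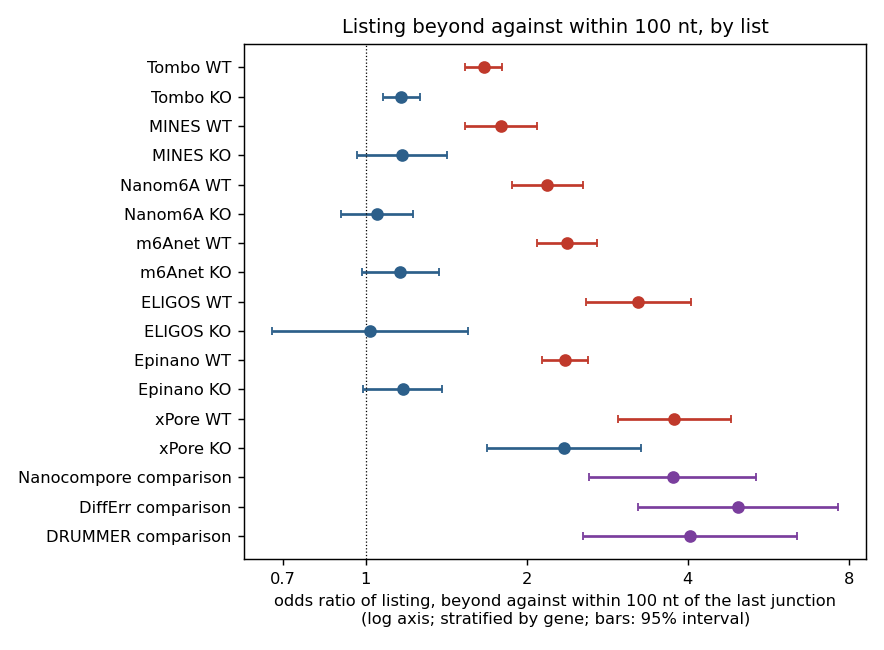
Odds ratio, stratified by gene, of being listed beyond against within 100 nt of the last junction (x axis, log scale) for each of the 17 lists (y axis), with 95% intervals; the dotted line marks 1. WT lists (red) and comparison lists (purple) lie between 1.66 and 4.96, and KO lists (blue) lie between 1.02 and 1.17 apart from xPore at 2.35.

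WT and KO positions were also compared with each other, and the part of read coverage in this was not tested. Pooled over genes, the ratio of KO to WT positions was lower beyond 100 nt than within it for all 7 tools. It was 0.159 beyond and 0.330 within for ELIGOS, 0.199 and 0.337 for Epinano, 0.349 and 0.629 for xPore, 0.404 and 0.590 for m6Anet, 0.495 and 0.744 for MINES, 0.764 and 0.898 for Nanom6A, and 0.817 and 0.931 for Tombo, and the intervals of each pair did not overlap. Within genes, WT positions that the KO list of the tool lacked had higher odds of lying beyond 100 nt than KO-listed positions, with 1.42 for Epinano (1.03 to 1.94), 1.57 for Tombo (1.33 to 1.85), 1.73 for Nanom6A (1.29 to 2.31), 2.42 for m6Anet (1.73 to 3.37) and 3.17 for ELIGOS (1.06 to 9.43, from 39 positions in 16 genes). For MINES (1.54, 0.824 to 2.89) and xPore (1.999, 0.806 to 4.96) the intervals held 1. For ELIGOS the interval held 1 under a cut at 50 nt, a cut at 200 nt and strata of gene and 5-mer, for Epinano under the last pair, and for Nanom6A under a cut at 50 nt (1.23, 0.909 to 1.68).

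Within a single transcript, distance from the junction and distance to the stop codon are the same scale read from opposite ends and cannot be told apart. Across transcripts they were crossed. Among RRACH positions within 200 nt of the stop codon, at least 2 comparison tools listed 0.309% of those within 100 nt of the junction (interval 0.220% to 0.434%) and 1.37% of those beyond it (1.17% to 1.59%). Further from the stop codon the shares were 0.277% (0.150% to 0.509%) and 0.518% (0.420% to 0.639%), which overlap. For any comparison list they were 0.554% (0.359% to 0.854%) and 1.01% (0.865% to 1.17%), which do not. In these shares pooled over genes the KO lists ran the other way, with 34.8% within and 31.1% beyond 100 nt near the stop codon, and 24.9% and 18.8% further from it. WT lists held 41.0% within and 42.0% beyond near the stop codon, with overlapping intervals, and 26.4% and 23.4% further from it, the direction of the KO lists. Within genes, no KO list had an odds ratio below 1 for lying beyond 100 nt, as given above.

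Positions of at least 2 comparison tools at the extremes of distance show the range. Near the junction, they included an Rps21 position (a ribosomal protein of the small subunit) at 3 nt and one in Llgl1, a cell polarity protein, at 12 nt. The Rps21 position was listed by Nanom6A and m6Anet in WT and by Tombo and Nanom6A in KO, and the Llgl1 position by 4 tools in WT and by m6Anet in KO. Far from it, Dag1 (dystroglycan) had one at 2249 nt, with 4 WT tools and none in KO, and Fignl1 one at 1723 nt, with 6 WT tools and xPore in KO. Ribosomal protein genes have many processed copies, so the placement of their reads is uncertain.

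The 12 genes with the most positions of at least 2 comparison tools held 39 such positions. Of these 39, 2 lay within 100 nt of the last junction, at 91 nt in Erp29 and 98 nt in Zfp57. The share was 14.9% over all positions of at least 2 comparison tools and 33.6% over the background. The 12 genes were chosen by a count that can favour long last exons, where few RRACH positions lie within 100 nt. The share over the background of these genes alone was not computed. The 5-mer was GGACT at 16, GGACC at 9, GGACA at 8 and AGACT at 3. Each was listed by 3 to 7 tools in WT and by at most 3 in KO, and 10 had no KO call. Some KO list held the other 29, and 77.4% of all 288 positions of at least 2 comparison tools.

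**Figure D4:**
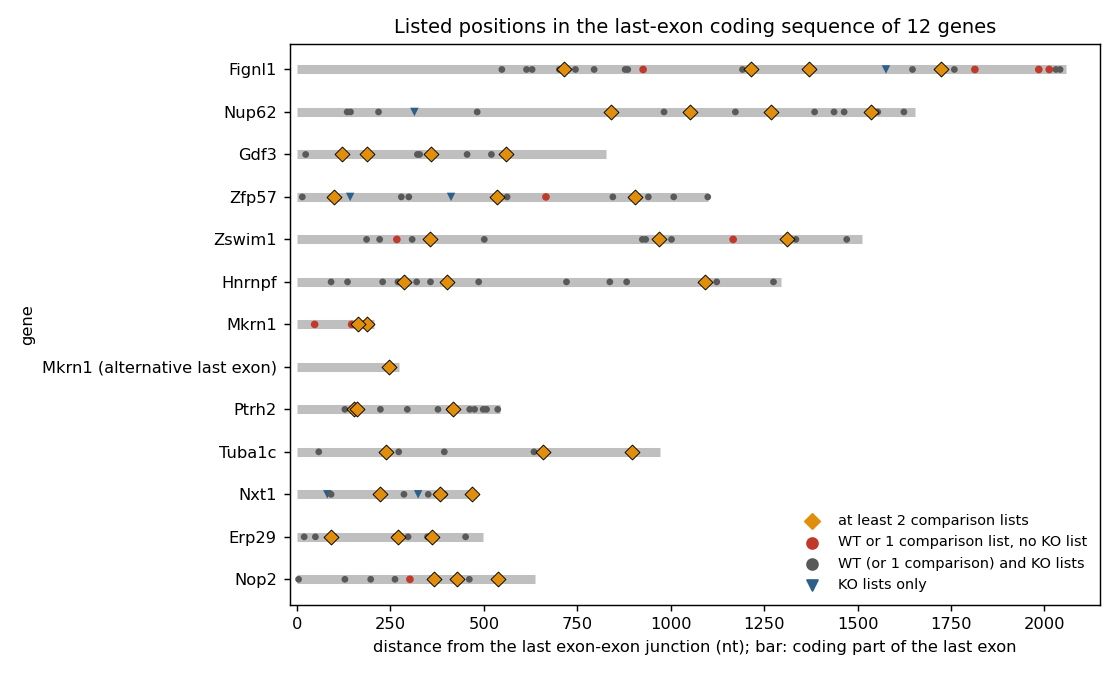
Listed positions along the coding part of the last exon (grey bar) in the 12 genes with the most positions of at least 2 comparison lists, by distance from the last junction in nt (x axis); Mkrn1 has positions in the last exons of 2 transcripts. Diamonds mark at least 2 comparison lists, and they lie from 91 to 1723 nt from the junction among positions shared by WT and KO (grey), found without KO (red) or in KO alone (blue triangles).

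Fignl1, an AAA ATPase of homologous recombination, had 23 listed positions among 28 RRACH positions in 2059 nt of coding sequence, 22 in a WT and 17 in a KO list. All 23 lay at least 548 nt from the junction. Those of at least 2 comparison tools were at 714 nt (GGACA), 1215 nt (GGACC), 1370 nt (GGACT) and 1723 nt (AGACT). They had 6, 5, 6 and 6 WT tools and 0, 0, 1 and 1 KO tools. The stretch below of 276 bases, chr11:11802177-11802452 on the minus strand of GRCm38, holds 8 listed positions, with the 5-mer of each in capitals, and is shown because widely listed and KO-shared positions stand side by side in it.
Fignl1 stretch: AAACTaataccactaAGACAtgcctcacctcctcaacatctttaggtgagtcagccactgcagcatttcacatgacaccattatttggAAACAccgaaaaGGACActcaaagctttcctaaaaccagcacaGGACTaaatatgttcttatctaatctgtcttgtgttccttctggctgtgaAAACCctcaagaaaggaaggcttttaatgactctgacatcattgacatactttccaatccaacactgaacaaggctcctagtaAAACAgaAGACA

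The GGACA of this stretch was listed by Tombo, Nanom6A, m6Anet, ELIGOS, Epinano and xPore in WT, by all 3 comparison tools and by no tool in KO. The GGACT 745 nt from the junction had the same 6 tools in WT, Tombo and Nanom6A in KO, and Nanocompore. The other 6 capitals mark AAAC and AGACA sequences with 1 or 2 WT tools, Tombo, Nanom6A or Epinano, and 1 or 2 KO tools, Tombo or Nanom6A, without a comparison call.

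Nup62 had 16 positions, 15 in WT and 15 in KO. The 4 of at least 2 comparison tools, at 839, 1052, 1269 and 1536 nt, were all GGACT with 6 WT tools each, and had 1, 3, 0 and 1 KO tools. Gdf3, a TGF-beta family ligand of early embryos, had 9 positions, all in both WT and KO lists. At 121 nt (AGACT), 187 nt (GGACC), 358 nt (GGACA) and 559 nt (GGACC) it was listed by at least 2 comparison tools, with 6, 4, 6 and 5 WT tools and 1, 1, 3 and 1 KO tools.

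In Zswim1, which had 14 positions, the 3 at 355, 969 and 1310 nt had 6, 7 and 6 WT tools and no KO call. Zfp57, a KRAB zinc finger protein that maintains imprints, had 14, with 3 at 98, 536 and 905 nt. Its GAACC at 905 nt was the only one of the 39 with a GAACC, and was listed by 5 tools in WT and none in KO. Nop2, an rRNA methyltransferase, had 10 positions, and all 3 comparison tools listed those at 367, 427 and 539 nt. Their WT tools numbered 5, 6 and 3, and their KO tools 1, 1 and 0.

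Erp29, a chaperone of the endoplasmic reticulum, had 10 positions, of which a GGACT at 91 nt had 6 WT tools and no KO tool. At 269 and 361 nt 6 tools listed it in WT and 3 and 1 in KO. Nxt1, an mRNA export factor, had 10 positions, all in KO lists, and the 3 at 221, 382 and 469 nt had 6, 4 and 5 WT tools against 3, 3 and 2 in KO. Ptrh2, a mitochondrial peptidyl-tRNA hydrolase, had 14 positions, all in both libraries, and at least 2 comparison tools listed those at 152, 160 and 417 nt.

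Hnrnpf, an RNA-binding splicing regulator, had 15 positions, every one of its 15 RRACH positions, all in both libraries. At least 2 comparison tools listed those at 286, 400 and 1092 nt. Tuba1c, an alpha-tubulin, had all of its 7 RRACH positions listed in both libraries, and its GGACT at 659 nt had 7 WT tools and Nanom6A alone in KO; close relatives of this tubulin share its sequence, and its reads are uncertain. Mkrn1, an E3 ubiquitin ligase, had 4 positions in the last exon of its long transcript and 2 in that of a shorter transcript of 3 exons. At least 2 comparison tools listed those at 164 and 188 nt in the former and at 246 nt in the latter.

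The 6 genes with the most positions in KO lists alone were chosen by a count, which favours long last exons with many RRACH positions. Such positions have no comparison call by definition. Over all last exons with more than 1000 nt of coding sequence, 0.560% of RRACH positions were in a comparison list, so few calls are usual there. Of the listed last-exon coding positions of all genes, 18.1% were in KO lists alone. Zfp318 had 17 such positions of 24, Zbtb21 14 of 14, Gemin4 12 of 40, Topors 11 of 29, Lrrc8c 11 of 11 and Zfp553 11 of 12. Gemin4 belongs to the SMN complex, Topors is a ubiquitin and SUMO ligase, and Lrrc8c is a subunit of the volume-regulated anion channel. Their last exons held between 1784 nt (Zfp553) and 3210 nt (Zbtb21) of coding sequence. All 17 KO-only positions of Zfp318 were Tombo calls, 1 of them shared with MINES. Zbtb21 and Lrrc8c had no position in a WT list within last-exon coding sequence, and whether enough WT reads covered them is unknown. Gemin4 alone of the 6 had a comparison call, 2 positions with 1 tool each.

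RRACH is a family of 12 5-mers, and the comparison lists held all of them but were concentrated in 4. GGACT made up 7.47% of the background, 10.3% of last-exon coding positions in KO, 13.5% in WT, 31.2% in any comparison list and 37.2% in at least 2. GGACA made up 10.1%, 15.8%, 15.4%, 21.9% and 26.0% of the same sets, and AGACT 8.06%, 7.86%, 10.1%, 20.5% and 14.6%. GGACC made up 8.82%, 7.62%, 10.03%, 11.3% and 15.3%. These 4 sequences together were 34.4% of the background and 93.1% of the positions of at least 2 comparison tools (89.5% to 95.5%). That share was 94.1% in 3′ UTRs, 97.0% in earlier exons of at least 400 nt and 79.8% in shorter ones. In the KO list of m6Anet the most frequent 5-mer was GAACT, at 38.9% (19.99% in WT, 6.94% of the background). MINES listed only the 4 sequences, to which its output is restricted.

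Where the 5-mer holds GAC, as 6 of the 12 do, its A can fall on the second base of a GAC codon, which encodes aspartate. Such positions made up 27.5% of the background, 32.9% of KO, 35.8% of WT, 50.7% of comparison-listed positions and 54.2% of those of at least 2 tools. Within a 5-mer the shares by reading frame were as follows. Of GGACT positions with the A at codon base 1, 2 or 3, a comparison list held 7.19%, 6.14% and 5.03%, with overlapping intervals, and WT lists held 59.6%, 59.2% and 61.9%. For GGACA the comparison shares were 1.61% (0.925% to 2.80%), 3.71% (3.05% to 4.51%) and 2.90% (1.999% to 4.18%), and the intervals of codon bases 1 and 2 did not overlap. For AGACT they were 4.34%, 3.04% and 4.07%, and for GGACC 1.72%, 1.63% and 2.65%, lowest at codon base 2 in both, with overlapping intervals.

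Short and long last exons differed. Where the last exon held at most 200 nt of coding sequence, 43.3% of RRACH positions were in a WT list, 35.6% in a KO list and 1.42% in a comparison list. From 201 to 1000 nt the shares were 37.5%, 28.9% and 2.34%, and over 1000 nt 19.98%, 16.8% and 0.560%. Transcripts of 2 exons, which held 1881 of the positions, had 32.4%, 26.9% and 2.44%, against 33.3%, 26.7% and 1.34% in transcripts with 3 or more exons.

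Support by several tools was more frequent in last-exon coding sequence than over all positions. Of the 14121 positions in a WT or comparison list, at least 2 of the 10 tools listed 43.2%, at least 4 listed 9.11% and at least 6 listed 3.39% (479). Over all positions the shares were 34.7%, 5.50% and 1.98%. Last-exon coding positions were 10.9% of the positions with at least 1 tool and 18.8% of those with at least 6. All 10 tools listed 11 of them, of which 3 had no KO call.

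Gene groups were described by counts, beside 33.2% in WT, 26.7% in KO and 1.46% in comparison lists over RRACH positions of all genes. Of the listed last-exon coding positions of all genes, 18.1% were in KO alone and 1.67% in at least 2 comparison lists. C2H2 zinc finger genes are transcription factors that often carry their whole finger array in a long last exon. Genes of this group, taken by symbol (Zfp, Zscan, Zkscan, Zbtb, Zik and Klf) and not by protein domain, had 1324 positions in 214 of 294 genes. Of these positions, 476 (36.0%) were in KO alone. The shares of RRACH positions of these genes were 15.4% in WT, 15.2% in KO and 0.346% in comparison lists. At least 2 comparison tools listed 8 positions (0.604% of the 1324) in 5 genes. The genes with the most positions were Zfp97 (26), Zfp318 (24), Zfp600 (21) and Zfp985 (21), and none of these 4 had a comparison call. Zfp97, Zfp600 and Zfp985 lie in clusters of near-identical genes, and their reads are uncertain.

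Ribosomal protein genes, highly expressed in every cell, had 104 positions in 51 of 83 genes. Nearly every RRACH position of these exons was listed, 92.0% in WT and 92.0% in KO, and 20.5% were in a comparison list. At least 2 comparison tools listed 8 positions (7.69% of the 104) in 8 genes. Rpl14 had 5 positions, all in both libraries, and its GGACC at 156 nt was listed by DiffErr and DRUMMER. Rpl8 also had 5, with a GGACT at 112 nt in all 3 comparison lists. Rps6 had 4, of which 2 had 1 comparison tool each, and Rps19 had 4 within 52 nt of the junction, with a GGACA at 39 nt in all 3 comparison lists. The median coding length of these last exons was 111 nt, and processed copies of these genes make their reads uncertain.

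Pluripotency genes had 56 positions in 14 of 20 genes, with 63.5% of their RRACH positions in WT lists, 43.5% in KO lists and 9.41% in comparison lists. At least 2 comparison tools listed 5 positions (8.93% of the 56) in 4 genes. Zfp42 (Rex1) had 9 positions, all in both libraries, and an AGACT at 161 nt and another at 264 nt with 6 and 5 WT tools, 3 and 3 KO tools and 2 and 3 comparison tools. Nanog, a core pluripotency factor, had 8 positions. A GGACT at 257 nt was listed by 6 tools in WT, by none in KO and by 2 comparison tools, and GGACC sequences recurred at 106, 136, 166 and 196 nt with 2, 2, 3 and 3 WT tools and 0, 1, 2 and 2 KO tools. Esrrb, an orphan nuclear receptor, had 6, of which a GGACT at 70 nt had 4 WT tools and no KO tool. Tet1, a DNA dioxygenase, had 6, with at most 2 WT tools and no comparison call.

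Genes that act on m6A had 29 positions in 12 of 20 genes, with 38.5% of their 65 RRACH positions in WT, 35.4% in KO and none in a comparison list. Over all genes 1.46% of RRACH positions were in a comparison list, so none among so few does not set this group apart. Cbll1 (Hakai, a subunit of the methyltransferase complex) had 7, Ythdc1 (the nuclear reader) 5, Zc3h13 (a further subunit) 4 and Alkbh5 (a demethylase) 3. Exon junction complex and nonsense-mediated decay genes had 29 positions in 8 of 20 genes. Of their 56 RRACH positions, 48.2% were in WT, 41.1% in KO and none in a comparison list, again too few to set the group apart. Pnn had 13 of them, Acin1 6, Upf3a 4 and Sap18 2. Polycomb genes had 54 positions in 15 of 26 genes, with 37.4% of their 115 RRACH positions in WT, 34.8% in KO and 1 (0.870%) in a comparison list. Cbx8 had 10, Mtf2 6 and Rybp 5, and the comparison call, by Nanocompore, was an AGACT of Rybp 81 nt from the junction with 4 WT tools and no KO tool.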

How the data were processed

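Native mRNA of WT and Mettl3 KO mESCs was sequenced with 1 library per condition. The authors basecalled and aligned the reads to the GENCODE mouse transcriptome, ran each tool and converted its calls to the genome (mm10). The deposited values are positions, strands and transcripts or genes only; no score or coverage is given, so depth per position is unknown. By the study's methods, sites needed at least 5 reads (more for m6Anet), and the cut-off of each tool was the one with the best summed F1 score against published miCLIP and miCLIP2 sites, so the number of positions in a list follows that choice.

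Computed here were unique positions placed on GENCODE M21 transcripts of GRCm38 (the authors used an earlier release of the same build), with a stop codon and at least 2 exons, choosing the longest coding sequence that holds the position. On the transcripts that the lists name and M21 holds, 95.8% of 16003 positions were also last-exon coding. In exons of more than 1 gene lay 363 positions, and 136 genes had positions on several transcripts. Distance to the last junction counts from 1 at the first base of the last exon, and distance to the stop codon counts back from its first base. Shares have Wilson and ratios exact binomial 95% intervals. Odds ratios are Mantel-Haenszel with Robins-Breslow-Greenland intervals, stratified by gene, and a ratio was called where its interval left out 1. They were tested on simulated data (400 runs of each setting). No test across libraries was possible, and positions are not replicates.

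Genes named are the 12 with the most positions of at least 2 comparison tools, the 6 with the most KO-only positions, and the 4 with the most positions of each gene list; positions named are the 8 with most tools and no KO call, 4 with most tools in both libraries, 3 with most tools in KO alone, and the 3 nearest to and farthest from the junction among those of at least 2 comparison tools. A few of the items that this rule names are not reported here. Members, lists and tests were chosen with earlier results of these data known. The within-gene ratios of exon classes, the KO to WT ratios within and beyond 100 nt and the split by last-exon length were added after seeing the data. Scripts ran on Python 3.11.15 with pysam 0.24.0, samtools 1.23.1, pandas 2.3.3, numpy 2.4.6, scipy 1.17.1 and matplotlib 3.10.9.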

Additional observations from a re-analysis of the deposited data

How the results depend on the processing

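The number of last-exon coding positions and the ratios of KO to WT positions stayed on the same side under other choices of transcript and with RRACH sequences only, and the number also with transcripts without a stop codon kept and with positions in exons of 1 gene only, under which the ratios were not run. Recurrence in KO depended on the comparison. Against earlier exons of at least 400 nt only, the odds ratio was 1.46 for Tombo, 1.44 for MINES, 2.01 for Nanom6A, 1.09 for m6Anet, 0.806 for ELIGOS, 1.25 for Epinano and 1.52 for xPore, and with the KO list of any tool it was 1.02, 0.909, 1.03, 1.06, 0.966, 1.42 and 0.939. With strata of gene and 5-mer class it was 0.984 for Nanom6A, 0.862 for Epinano and 0.916 for xPore, with intervals that held 1. For listing beyond the junction, all WT and comparison lists kept intervals above 1. Among KO lists, 2 ratios gained intervals above 1. They were MINES at 1.35 (1.02 to 1.80) where last exons held at least 300 nt, and Nanom6A at 1.18 (1.002 to 1.38) at a cut of 50 nt. Nanom6A had 0.996 with 5-mer strata and 0.959 with at least 300 nt. ELIGOS had 0.921 at a cut of 200 nt and 0.897 with at least 300 nt, and the intervals of these values held 1. For WT-only against KO-listed positions, a cut at 50 nt gave 2.31 for MINES, 1.23 for Nanom6A and 7.67 for ELIGOS (the intervals of the last 2 held 1), a cut at 200 nt 1.09 for ELIGOS, 1.31 for Epinano and 0.948 for xPore, and 5-mer strata 3.50 for ELIGOS and 1.08 for Epinano. Against 3′ UTRs the ratio of comparison listing became 0.942 with 5-mer strata. The cause of these moves was not tested. Without coverage, an unlisted position cannot be told from an unread one. No paired analysis was possible because each condition had 1 library and the lists carry no replicate numbers.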
